A study of Rattus norvegicus with 6 samples.

Results

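The nuclear receptors described here are 9 ligand-regulated or orphan transcription factors of vascular cells: the PPARs Pparg, Ppara and Ppard, their partners Rxra and Rxrb, the glucocorticoid receptor Nr3c1, the orphan receptors Nr4a1 (NUR77) and Nr2f2 (COUP-TFII), and the retinoid-related orphan receptor Rora. They were taken by gene symbol from the deposited count table, which holds 22574 symbols, and all 9 were listed there and had enough counts to be tested. RNA was measured in 6 libraries of RASMCs, primary smooth muscle cells grown out of the aorta of male Sprague-Dawley rats aged 8 weeks, after the adventitia and the endothelium had been taken off. In 3 libraries the cells had been treated with CitH3+dsDNA, that is 0.03 μM citrullinated histone H3 and 300 ng/ml dsDNA, the materials that extracellular traps are made of, and 3 libraries were controls given bovine serum albumin. The length of the treatment and the dose of albumin are not given in the sources used here.

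Nuclear receptors bind DNA directly and change transcription when a small lipid-like ligand fits their pocket, although orphan members act without a known ligand. PPARs sense fatty acids and their derivatives and bind DNA only as partners of an RXR, which is shared with the retinoic acid, thyroid hormone, vitamin D and liver X receptors. In the vessel wall PPARγ and the glucocorticoid receptor are known for restraining inflammatory gene expression, NR4A receptors are immediate-early genes, and COUP-TFII is known for setting venous identity and for mesenchymal fate.

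Of the 9 receptors, 2 rose after CitH3+dsDNA and none fell. Pparg was 2.51-fold higher and Nr3c1 1.21-fold higher in edgeR's quasi-likelihood test, each with an adjusted p-value under 0.05 over the 12591 genes tested. With 1 library left out, between 0 and 2 of the 9 were called, and 0 in 4 of the 6 such fits. The other 7, among them both RXRs tested here and the other 2 PPARs, did not pass the test or have an unadjusted p under 0.05. Over all genes tested 2.2% were called, 1.94% higher and 0.262% lower, and 13.9% had an unadjusted p under 0.05. The median log2 fold change was 0.06 over the 9 receptors and -0.0013 over all genes tested. In 3 of the 9, Pparg, Nr3c1 and Rora, every CitH3+dsDNA library lay above every control in CPM, and in none every library lay below. Over all genes tested the groups were apart in 19.1%, higher in 10.7% and lower in 8.43%. CPM are counts scaled to library size after TMM normalisation. Transcript lengths of the authors' annotation were not used. The groups are therefore compared within a gene or within a summed marker list. Genes called abundant are those of high mean CPM, without correction for length.

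The table had one row for Pparg, whose transcription is known to begin at alternative promoters that give the γ1 and γ2 forms, so the counts pool them. RefSeq (GRCr8, a later assembly than the one the authors mapped to) lists 2 windows for the gene, each holding 250 bases before and 50 bases after a start. They are shown because Pparg had the largest fold change of the 9 receptors and because both hold the motif GGGTCA, in capitals, a variant of the AGGTCA core that nuclear receptors bind. The first window is chr4:150096808-150097107 and the second chr4:150154522-150154821, both on the + strand.
Pparg window 1: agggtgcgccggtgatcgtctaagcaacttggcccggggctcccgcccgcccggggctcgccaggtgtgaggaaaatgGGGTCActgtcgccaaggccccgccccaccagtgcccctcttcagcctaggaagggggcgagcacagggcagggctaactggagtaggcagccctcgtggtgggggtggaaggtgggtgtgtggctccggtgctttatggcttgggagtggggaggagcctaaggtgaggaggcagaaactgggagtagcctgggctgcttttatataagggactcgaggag
Pparg window 2: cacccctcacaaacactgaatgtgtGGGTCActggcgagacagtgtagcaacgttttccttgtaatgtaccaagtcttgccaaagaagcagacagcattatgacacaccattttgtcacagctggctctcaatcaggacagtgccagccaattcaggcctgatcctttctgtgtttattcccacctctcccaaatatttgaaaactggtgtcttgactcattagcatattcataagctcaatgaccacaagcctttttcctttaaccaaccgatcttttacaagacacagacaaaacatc
Searched on both strands, GGGTCA was in 13.8% of all 33469 windows of this length and, of the 9 windows listed for 7 of the receptors, only in these 2. The core AGGTCA itself was in 16.2% of all windows and in none of those 9. GGGTCA was picked after the sequences had been seen, and a match describes letters, not a bound site. Ppard and Nr2f2 had no entry.

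Pparg encodes PPARγ, the receptor of fat cell formation and the target of glitazones. CitH3+dsDNA libraries held 32, 33 and 34 Pparg counts, and controls held 13, 12 and 15. The groups did not overlap, and the lowest treated library had more than the highest control by a wide margin. In CPM this was 1.84 ± 0.0623 (SD, n = 3) against 0.728 ± 0.0808 (SD, n = 3). The log2 fold change was 1.33 with a standard error of 0.26 and a 95% interval of 0.76 to 1.90 (adjusted p = 0.0163 from edgeR). The direction was the same in all 15 alternative analyses, but the call was kept in only 8 of them. With DESeq2 the adjusted p was 0.0679, and with the replicate number as a block it was 0.0558. Leaving out 1 library ended the call in 5 of 6 fits, at 0.0730 without CitH3+dsDNA replicate 1, 0.0575 without replicate 2 and 0.0755 without replicate 3 of that group, and at 0.0834 without control replicate 1 and 0.0935 without control replicate 2.
The 3 treated counts of Pparg are consecutive whole numbers. Their SD was 1, where Poisson counting alone has an SD of 5.74 at a mean of 33. The control counts had an SD of 1.53 against a Poisson value of 3.65. Among all genes tested with a mean of 20 to under 50 counts in the CitH3+dsDNA group, such a run of consecutive counts was present in 23 of 1044. By call, it was present in 5 of the 12 called genes of that range, Pparg among them, and in 18 of the 1032 not called. A small spread within a group itself favours a call in this test, so the split by call is not independent of the calls. What part this has in the result was not tested.

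**Figure D1:**
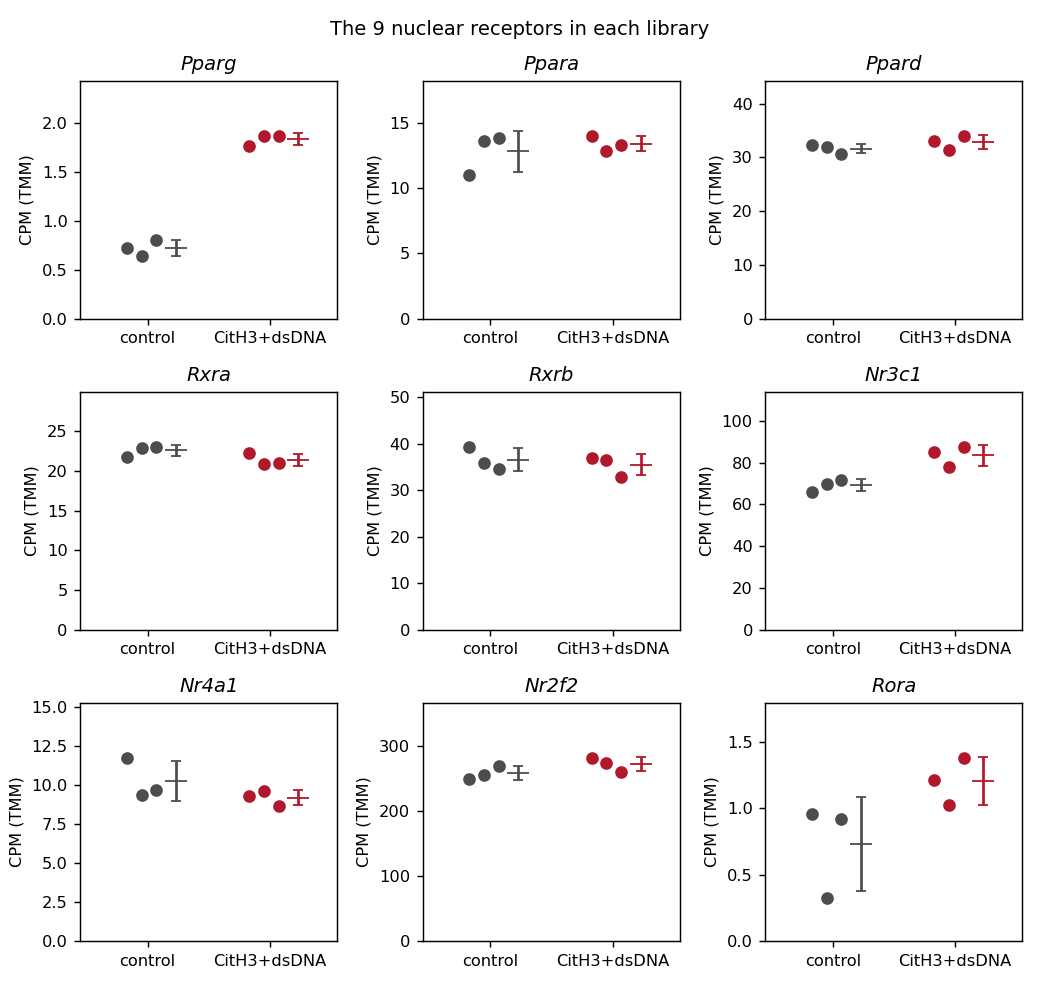
Each panel plots 1 receptor, with the TMM-scaled CPM of each library on a linear axis from 0 (points, replicates 1 to 3 from left to right), and the group mean ± SD (n = 3) to the right of the points. The control and CitH3+dsDNA points are apart for Pparg, Nr3c1 and Rora and overlap for the other 6 receptors.

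The other PPARs were not called. Ppara, the receptor that drives fatty acid oxidation genes, had counts of 254, 227 and 242 after CitH3+dsDNA and of 196, 253 and 257 in controls. The groups overlapped, with control replicate 1 the lowest library of all. Its log2 fold change was 0.06, with a 95% interval of -0.15 to 0.28 (adjusted p = 0.832 from edgeR). Ppard, the broadly expressed PPAR, had counts of 598, 554 and 617 against 576, 592 and 568. These groups overlapped as well, and the log2 fold change was 0.05 with an interval of -0.08 to 0.18 (adjusted p = 0.741 from edgeR). Rises as large as the estimate for Pparg lie outside both intervals.

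The RXRs, without which a PPAR does not bind its sites, did not pass the test either. Rxra had counts of 403, 368 and 381 after CitH3+dsDNA and of 389, 425 and 427 in controls. The ranges crossed only through the first library of each group. The log2 fold change was -0.08, with a 95% interval of -0.22 to 0.06 (adjusted p = 0.642 from edgeR). Rxrb had counts of 671, 643 and 597 against 701, 665 and 640, with overlap between the groups. Its log2 fold change was -0.04, with an interval of -0.19 to 0.11 (adjusted p = 0.834 from edgeR). Rxrg, the third RXR gene, had no count in the CitH3+dsDNA libraries and 1 in each control, too few to be tested.

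Nr3c1, the glucocorticoid receptor, is held in the cytoplasm by chaperones until cortisol or corticosterone binds it. Its counts were 1538, 1373 and 1587 after CitH3+dsDNA and 1177, 1290 and 1332 in controls. Every treated library was above every control, but CitH3+dsDNA replicate 2 was only slightly above control replicate 3 in raw counts. In CPM the groups stood at 83.4 ± 4.91 (SD, n = 3) and 69.1 ± 2.93 (SD, n = 3). The log2 fold change was 0.27 with a standard error of 0.05 and a 95% interval of 0.16 to 0.38 (adjusted p = 0.0140 from edgeR). It was called in 11 of 15 alternatives, among them DESeq2 and the replicate block. The call was lost without CitH3+dsDNA replicate 1 (adjusted p = 0.0951 from edgeR), without CitH3+dsDNA replicate 3 (0.0868), without control replicate 1 (0.0807) and without control replicate 2 (0.0618), with log2 fold changes of 0.23 to 0.32 over the 6 fits that each left out a library.

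The orphan receptors did not pass the test. Nr4a1, an immediate-early gene, had counts of 168, 169 and 157 after CitH3+dsDNA and of 209, 173 and 180 in controls. The raw counts did not overlap, but in CPM the treated range of 8.65 to 9.59 crossed the control range of 9.32 to 11.7. Its log2 fold change was -0.16, with a 95% interval of -0.41 to 0.09 (adjusted p = 0.580 from edgeR). Nr2f2 had counts of 5091, 4829 and 4717 against 4441, 4741 and 5000. In CPM the groups crossed only through replicate 3 of each, and the log2 fold change of 0.07 had an interval of -0.01 to 0.16 (adjusted p = 0.461 from edgeR).
Rora, which binds the same clock gene elements as the REV-ERB repressors, had the widest interval of the 9. Its counts were 22, 18 and 25 after CitH3+dsDNA and 17, 6 and 17 in controls, with control replicate 2 well below the rest. The groups were apart, since the lowest treated library stood at 1.02 CPM and the highest control at 0.952 CPM. The log2 fold change was 0.72 with an interval of -0.09 to 1.53 (adjusted p = 0.422 from edgeR), and it was 0.36 without control replicate 2. At this depth neither no change nor a change as large as that of Pparg could be told from these counts.

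The rest of the nuclear receptor family was then read from the same fit. Of 48 receptor genes in all, 28 were tested and 3 were called, all of them higher, at a background of 2.2%. The 9 receptors, chosen with earlier results known, hold 2 of these calls. Of the 28, 5 had an unadjusted p under 0.05 in edgeR, where 13.9% of all genes tested did. In CPM 5 were higher in every treated library and 2 were lower, against 10.7% and 8.43% over all genes tested. The single call outside the 9 receptors was Nr4a3 (NOR-1), a close relative of Nr4a1. Nr4a3 had counts of 60, 67 and 66 after CitH3+dsDNA and of 23, 22 and 21 in controls. The groups were far apart, at 3.58 ± 0.251 CPM against 1.20 ± 0.0799 CPM (SD, n = 3 each). Its log2 fold change was 1.57 with a standard error of 0.21 and an interval of 1.11 to 2.03 (adjusted p = 0.000647 from edgeR), and it was called in all 15 alternatives. The control counts are consecutive whole numbers with an SD of 1, against a Poisson SD of 4.69, as in 28 of the 1047 genes tested with a control mean of 20 to under 50 counts. By call, such a run was present in 10 of the 28 called genes of that range, Nr4a3 among them, and in 18 of the 1019 not called. As for Pparg, this split is not independent of the calls, and the part of the run in the result was not tested.
The remaining relative Nr4a2 (NURR1) had counts of 46, 45 and 32 against 59, 67 and 44, with overlapping groups and a log2 fold change of -0.44 (interval -0.95 to 0.08, adjusted p = 0.445 from edgeR). The estimates for the 3 NR4A genes thus differed in sign, but only that of Nr4a3 passed the test, and the difference between them was not tested.

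**Figure D2:**
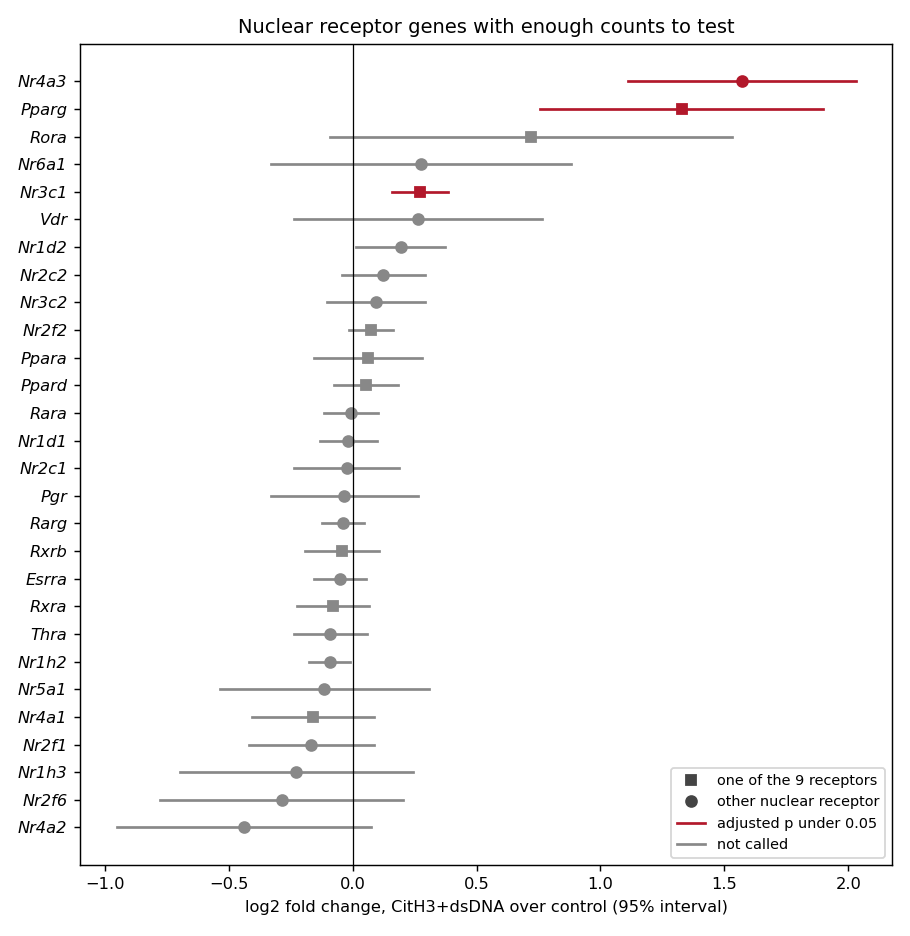
The plot gives the log2 fold change (CitH3+dsDNA over control, x axis) with its 95% interval for the 28 nuclear receptor genes tested, ordered by estimate. Squares are the 9 receptors, circles the other 19, and red marks an adjusted p-value under 0.05, which Nr4a3, Pparg and Nr3c1 reached.

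The RXR partners in this wider list were not called. Rarg, a retinoic acid receptor, had counts of 2077, 1985 and 2113 after CitH3+dsDNA and of 2091, 2144 and 2236 in controls, with a log2 difference of -0.04 (edgeR adjusted p = 0.699). Nr1h2, which encodes the oxysterol receptor LXRβ, had counts of 1935, 1940 and 1978 against 2064, 2154 and 2147. Its groups did not overlap, yet the log2 fold change of -0.09 was not called (adjusted p = 0.285 from edgeR). Over the 18 uncalled receptors outside the 9, log2 fold changes ran from -0.44 to 0.28. The 20 receptors not tested had no more than 8 counts in a library, and 6 of them had none in all 6 libraries. A count of 0 allows up to 3 counts, or 0.162 to 0.170 CPM per library.

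PPAR target genes were considered next as a list of 32, mostly of fatty acid uptake and oxidation, of which 24 were tested. Only Adipoq was called, and the median log2 fold change of the list was 0.01. Of the 24, 3 had an unadjusted p under 0.05 in edgeR, where 13.9% of all genes tested did and 2.2% were called. In CPM 3 were higher in every treated library and 3 were lower, against 10.7% and 8.43% over all genes tested. Adipoq, the adiponectin gene and a textbook target of PPARγ, had counts of 89, 99 and 94 after CitH3+dsDNA and of 33, 32 and 45 in controls. The groups were well apart, at 5.23 ± 0.358 CPM against 2.0 ± 0.373 CPM (SD, n = 3 each), and the log2 fold change was 1.38 with a standard error of 0.19 (adjusted p = 0.000791 from edgeR, called in all 15 alternatives).
Other targets known from fat cells were not called. Fabp4, a fatty acid carrier, had counts of 27, 27 and 16 against 24, 11 and 25, and Plin1, a lipid droplet coat protein, had 19, 20 and 20 against 25, 24 and 20. Their log2 fold changes were 0.25 (interval -0.52 to 1.02) and -0.20 (interval -0.77 to 0.38), and neither interval reaches the estimate for Adipoq. Cd36 reached no more than 5 counts and Lpl no more than 10, so that neither was tested. These 4 genes were named after their values had been seen.
The abundant oxidation genes gave the narrowest intervals. Hadha had counts of 5132, 4789 and 4974 after CitH3+dsDNA and of 4811, 5153 and 5195 in controls, and Hadhb had 7519, 7404 and 7507 against 7533, 7651 and 7392. These genes encode the subunits of the mitochondrial trifunctional protein. Their log2 fold changes were 0.00 (interval -0.07 to 0.08) and 0.02 (interval -0.05 to 0.09), neither called, and their signs turned with the scaling or the library left out.

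Among 22 coregulators, the proteins that receptors recruit to open or close chromatin, 21 were tested and 1 was called. Of the 21, 6 had an unadjusted p under 0.05 in edgeR, where 13.9% of all genes tested did and 2.2% were called. In CPM 5 of the 21 were higher in every treated library and 1 was lower, against 10.7% and 8.43% over all genes tested. Sirt1, a deacetylase known to bind PPARγ and to dock its corepressors, had counts of 56, 53 and 55 after CitH3+dsDNA and of 10, 23 and 24 in controls. Control replicate 1 was far below the other controls, and the treated counts had an SD of 1.53 against a Poisson SD of 7.39. The log2 fold change was 1.55 with a standard error of 0.28 (adjusted p = 0.00926 from edgeR). It was 1.26 without control replicate 1, and the call was lost only without CitH3+dsDNA replicate 1 (adjusted p = 0.0578 from edgeR). The list's median log2 fold change was 0.12, against -0.0013 over all genes tested.
Ncoa1 and Med1, coactivators named after their values had been seen, were higher in every treated library in CPM but not called, with log2 fold changes of 0.24 (adjusted p = 0.0864 from edgeR) and 0.17 (adjusted p = 0.0903). The corepressor genes Ncor1 (0.13) and Nrip1 (0.23) were likewise higher in every treated library and not called. The coactivator gene Carm1 was lower in every treated library (-0.06), also without a call. Ncoa4 had counts of 1966, 1864 and 1974 against 1807, 1847 and 1991, with overlapping groups and no call (log2 fold change of 0.07). Ppargc1a, the PPAR coactivator PGC-1α, had at most 2 counts in any library.

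**Figure D3:**
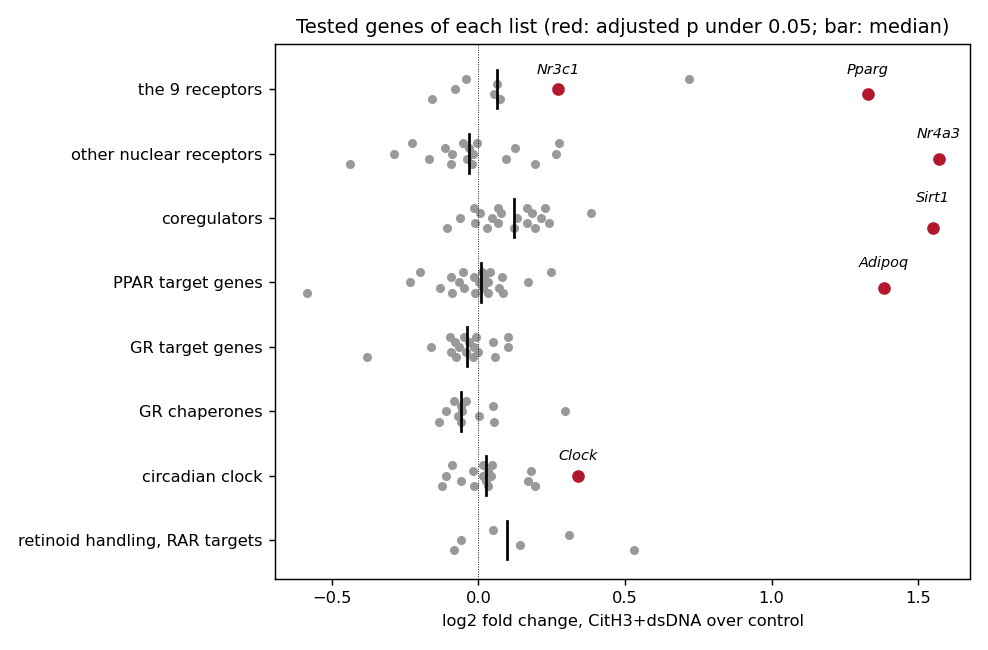
Points are the log2 fold changes (CitH3+dsDNA over control, x axis) of the tested genes of each list, with vertical scatter only to separate points, and black bars are list medians. Named red points passed the test: Nr3c1 and Pparg, Nr4a3, Sirt1, Adipoq and Clock.

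Glucocorticoid receptor targets were read as a list of 20. Of these, 18 were tested, and none was called by edgeR or in any of the 15 alternatives, DESeq2 and limma-voom among them, and 0 had an unadjusted p under 0.05 in edgeR. Over all genes tested these shares were 2.2% and 13.9%, so that a list of this size holds few calls in any case. Their median log2 fold change was -0.04. Fkbp5, a co-chaperone that the receptor induces, had counts of 486, 536 and 566 after CitH3+dsDNA and of 536, 562 and 610 in controls, so that its log2 fold change was -0.08 (interval -0.23 to 0.08). Tsc22d3, which encodes the anti-inflammatory GILZ, had 699, 692 and 686 against 745, 758 and 754, so that its log2 fold change was -0.09 (interval -0.20 to 0.02). Both genes were named after their values had been seen, and the estimates of the 18 tested targets ran from -0.38 to 0.10. How the change in Nr3c1 RNA bears on these targets was not tested.
The most abundant targets were not called either. Anxa1, the annexin A1 gene, had counts of 7936, 7599 and 7878 against 8004, 8438 and 8552. Its groups did not overlap, and the log2 fold change was -0.07 without a call (adjusted p = 0.366 from edgeR). Hsd11b1, whose enzyme makes active glucocorticoid from its inert form, had 5987, 5795 and 6373 against 6435, 6227 and 6075, with a log2 fold change of -0.02 (interval -0.11 to 0.07). Of 12 chaperones and co-chaperones of the receptor, all were tested and none was called, in the main test or in any alternative, with 2 at an unadjusted p under 0.05 in edgeR and a median log2 fold change of -0.06. Both counts are near the shares over all genes, 2.2% and 13.9%. In CPM 0 of the 12 were higher in every treated library and 3 were lower, Hsp90ab1 among them. Over all genes tested these shares were 10.7% and 8.43%. Hsp90ab1 had a log2 fold change of -0.04 and Hspa8 of -0.13, the latter with 14506 counts in CitH3+dsDNA replicate 3 against 17618 and 17722 in its group.

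Among 19 circadian clock genes, not all of them known targets of ROR and REV-ERB receptors, 17 were tested and 1 was called. Of the 17, 3 had an unadjusted p under 0.05 in edgeR, where 13.9% of all genes tested did and 2.2% were called. Clock, the partner of BMAL1 in the clock's activating complex, had counts of 512, 478 and 495 after CitH3+dsDNA and of 355, 408 and 434 in controls. The groups were apart, and the log2 fold change was 0.34 with a standard error of 0.07 (adjusted p = 0.0269 from edgeR). The call was lost with the replicate block (0.0654) and in 5 of the 6 fits without a library, with adjusted p-values of 0.0613 to 0.137, and was kept without control replicate 3 (0.0154). Csnk1d and Bhlhe40, the most abundant uncalled genes of this list, had log2 fold changes of 0.02 and 0.04. Arntl, the BMAL1 gene, named after its values had been seen, was higher in every treated library in CPM but not called. Its log2 fold change was 0.17 (interval 0.04 to 0.31, adjusted p = 0.233 from edgeR). Nr1d1 and Nr1d2, which encode REV-ERBα and REV-ERBβ, were also named after their values had been seen. Nr1d1 had 898, 835 and 862 counts against 923, 888 and 866. The groups overlapped, with a log2 difference of -0.02 (edgeR adjusted p = 0.920). Nr1d2 had 446, 387 and 441 counts against 329, 415 and 392, also with overlap in CPM. Its log2 difference was 0.19 (interval 0.01 to 0.37, edgeR adjusted p = 0.320).
Of 16 genes of retinoid handling and retinoic acid targets, 6 were tested and none was called, in the main test or in any alternative, and 0 had an unadjusted p under 0.05 in edgeR, at 2.2% and 13.9% over all genes. With so few genes these counts say nothing particular about the list. Crabp1, a retinoic acid carrier, had a log2 fold change of -0.06. Tgm2, a transglutaminase induced by retinoic acid, had 2321, 2227 and 2349 counts after CitH3+dsDNA and 2258, 2380 and 1021 in controls. Its log2 fold change of 0.31 rested on control replicate 3 and was 0.01 without it.

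**Figure D4:**
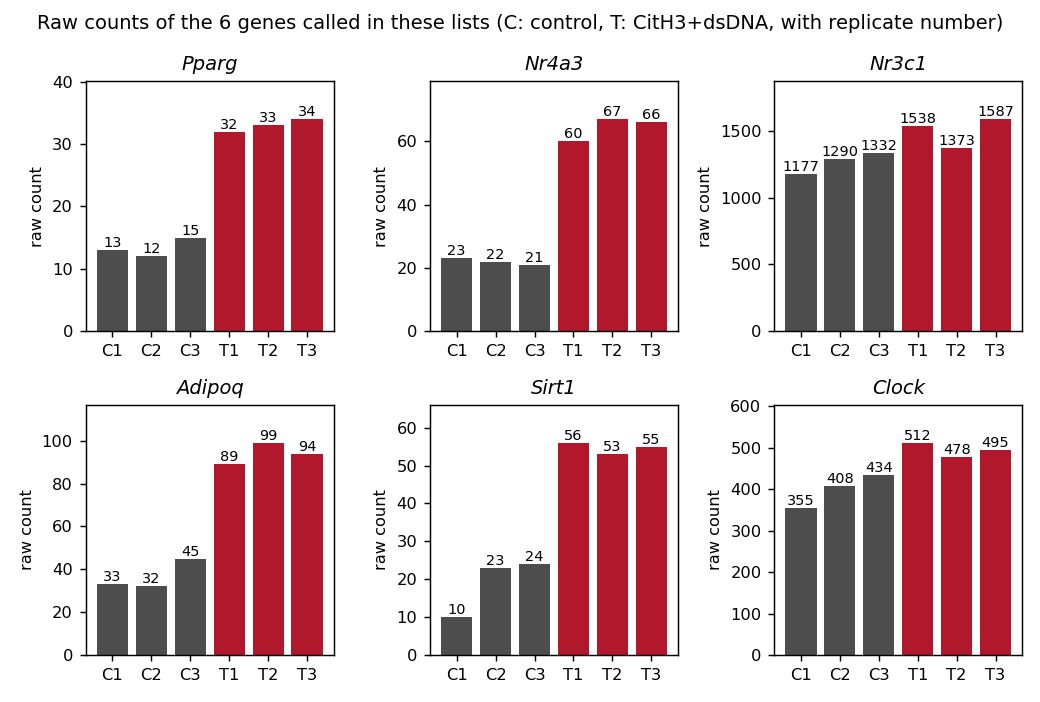
Bars are the raw counts of each library, from 0, for the 6 genes called in these lists, with the count printed above each bar. The treated bars exceed the control bars in each of the 6 genes, by the largest margin relative to controls for Nr4a3 and Sirt1 and by the smallest for Nr3c1.

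The genes whose log2 CPM followed those of the called receptors most closely over the 6 libraries were read off without a test. For Pparg these were Egfr (Pearson r = 0.998, log2 fold change 1.01), Ctdspl (r = 0.998, 0.14, not called) and Bmp4 (r = 0.997, 2.17). Bmp4, a secreted growth factor, had 56, 55 and 54 counts against 12, 11 and 14, again with a run of consecutive counts. For Nr3c1 they were Smg1 (r = 0.998, log2 fold change 0.32), Hivep2 (r = 0.997, 0.36) and Pds5a (r = 0.997, 0.27), each of them called. All points of such a correlation share the 6 libraries and the group difference.

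The cells carried smooth muscle transcripts, with Acta2 at 52005 or more, Tagln at 35702 or more and Myh11 at 6385 or more counts in every library. The summed CPM of 8 smooth muscle markers was 5746 to 6303 after CitH3+dsDNA and 8484 to 9225 in controls, with Acta2, Tagln, Cnn1 and Smtn called lower and Myocd higher. What part this has in the receptor results was not tested. The summed CPM of 8 macrophage markers was 72.2 to 74.5 against 73.4 to 76.5, with none of the 5 tested called and Ptprc, Itgam and Cd163 at no more than 1 count in any library. Of 6 adipocyte markers 4 were tested and only Adipoq was called. The list summed to 16.8 to 18.7 against 14.8 to 16.6 CPM, a difference smaller than that of Adipoq alone. The other 3 tested markers had negative estimates, from -0.38 to -0.06, with Cfd lower in every treated library, and Lep had at most 4 counts. Of 7 endothelial markers 5 were tested and of 7 fibroblast markers 2, and none was called, and no tested gene of these lists or of the macrophage list had an unadjusted p under 0.05 in edgeR. The summed CPM was 58.8 to 62.0 against 61.9 to 65.5 for the endothelial list and 2.92 to 4.36 against 2.80 to 5.49 for the fibroblast list. In bulk RNA, more cells that express a gene and more RNA per cell cannot be told apart.
Library totals lay between 17573905 and 18742395 counts, and 15340 to 15438 symbols were detected per library. The reporting summary describes replicates of cell culture experiments as wells plated from the same rat, so p-values cover wells and library preparation rather than animals.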

How the data were processed

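RNA-seq counts of 6 RASMC libraries were analysed, 3 CitH3+dsDNA and 3 control, grouped by their titles. The authors made stranded mRNA libraries, mapped reads to Rnor6.0 with TopHat 2.1.1, counted them per gene with HTSeq 0.6.0 and deposited raw counts; the submitters' processing notes also name Cufflinks 2.2.1 and Cuffdiff. The strand setting of the counting is not given in the sources used here, so overlapping and antisense genes can share reads.

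After the filterByExpr filter and TMM scaling, genes were tested with edgeR 4.0.16 (quasi-likelihood test, R 4.3.3, two-sided, Benjamini-Hochberg over 12591 genes, called under 0.05). Standard errors are the unshrunken coefficient over the root of F, and intervals cover 95%. Fits were tested on simulated negative binomial counts, whose expected spread is at least that of Poisson counting. That simulation does not cover genes with a smaller spread within a group, such as Pparg. An exact permutation test of 3 libraries against 3 cannot go below 0.1.

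The receptors and gene lists were chosen with earlier results of these data known. Named genes are the 9 receptors, up to 6 called genes and the 2 most abundant uncalled genes of each list, and the 3 genes most alike each called receptor; some genes under this rule or in the lists are not reported here by name. Acaa1a and Mt1a were matched as Acaa1 and Mt1. Alternatives were DESeq2 1.42.0, limma-voom (limma 3.58.1), other scalings and filters, robust dispersion, a block by replicate number, and fits without 1 library. No pairing of the libraries by replicate number was seen.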

Additional observations from a re-analysis of the deposited data

How the results depend on the processing

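Over the 15 alternatives, 120 of 134 log2 fold changes of the 9 receptors kept their sign and their side of the threshold. Pparg kept its sign but not its call with DESeq2 (log2 fold change 1.33), with the replicate block (1.33) and in 5 fits that left out a library (range over all 6 such fits 1.25 to 1.41). Nr3c1 lost its call in 4 fits without a library (0.23 to 0.32 over the 6). Only uncalled estimates changed sign among the receptors, Ppara without a library (-0.036 to 0.12) and Rxrb without a library (-0.083 to 0.012). The number of receptors called was 1 with DESeq2 and 1 with the replicate block, and 0 to 2 with each library left out, against 2. Rora had no value with at least 10 counts in every library.

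With no filter 2 coregulators were called, and with robust dispersion 3 coregulators and 2 PPAR targets, the added genes being Ncoa1, Med1 and Cat; leaving out a library gave 0 to 2 coregulators, 1 to 2 PPAR targets and 0 to 1 clock genes, and the replicate block gave 0 clock genes. Over all genes the count of 277 became 164 to 357 with a library left out, the lowest without CitH3+dsDNA replicate 1 and then without control replicate 1 (184). Sign changes of other uncalled genes were Hsd11b1 with library size alone (0.00077), Hadha with DESeq2 size factors (-0.00015), upper-quartile scaling (-0.014) and DESeq2 (-0.00019), and, without a library, Hadhb (-0.0038 to 0.038), Hadha (-0.017 to 0.014), Hsd11b1 (-0.052 to 0.022) and Crabp1 (-0.18 to 0.0038). The causes were not tested.

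The replicate block was a fit by number alone, and it called 212 genes. Correlations of same-numbered libraries' deviations, across genes, were -0.0514, -0.00304 and 0.0380, so that no pairing by number was seen. These values cannot tell whether same-numbered wells were plated or prepared together. Depth limits Pparg and Rora, each with a mean of 13.3 counts in controls, and the receptors with at most 8 counts.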
